A study of Arabidopsis thaliana with 48 samples.

Results

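The MBF1 genes are the 3 Arabidopsis genes for MULTIPROTEIN BRIDGING FACTOR 1, namely MBF1A (AT2G42680), MBF1B (AT3G58680) and MBF1C (AT3G24500). The choice takes the whole gene family and uses no measured value, though it was made with earlier results of these data known. All 3 were among the 33323 genes in the counts. MBF1 proteins are small transcriptional coactivators found from yeast to animals and plants. They link gene-specific activators to the TATA-box-binding protein, and they carry a conserved helix-turn-helix domain. In Arabidopsis, MBF1C is known as a heat-inducible gene needed for thermotolerance, whereas MBF1A and MBF1B are known for steady expression in most tissues.

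The values are RNA-seq read counts from whole seedlings of 4 genotypes in the Col background. These are the wild type (Col), hsfa2 and hsfa3, each mutated in the gene for a heat shock transcription factor, and the double mutant hsfa2 hsfa3. Both mutations are single described alleles, hsfa2-1 and hsfa3-1, carried in every cell. Seedlings 4 d old received an acclimation treatment (ACC) in 2 steps. They spent 1 h at 37 °C and, after a break of 90 min at 23 °C, another 45 min at 44 °C, and were harvested after a recovery of 4 h, 28 h or 52 h. The controls were seedlings of the same genotypes without heat stress (no HS). Every genotype and time point had 3 biological replicates, which gives 48 libraries in 16 groups. The sources used here give no separate no HS control for each harvest time, so age at harvest and ACC cannot be told apart at 28 h and 52 h.

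The comparisons ask which MBF1 transcripts were induced by ACC, for how long, and whether HSFA2 and HSFA3 were needed for it. Levels are CPM, the usual scaling of counts to a common library size, taken over protein-coding genes and with TMM factors. Unless another fit is named, each adjusted p is from edgeR's quasi-likelihood test over 21107 genes in all 48 libraries. This main fit used TMM factors and no term for the replicate number. A gene is called at an adjusted p below 0.05, and is termed induced where its log2 fold change is also above 1.

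The gene models are given on the TAIR10.1 assembly, and all 3 genes lie on the forward strand. MBF1A spans chr2:17774832-17776320 and MBF1B spans chr3:21707247-21708972, each with 4 exons and a protein of 142 residues. MBF1C spans chr3:8918267-8919683 and has 2 annotated transcripts. The first has a single exon and encodes 148 residues, and the other starts downstream at position 8918679, has 3 exons and encodes 97 residues. The counts do not separate these transcripts.

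MBF1A and MBF1B are near copies of each other. Their coding bases are 84.4% identical, against 62.2% for MBF1A with MBF1C and 64.5% for MBF1B with MBF1C. Coding bases 31 to 60 of both genes are shown because they carry the differences by which reads of these paralogs are separated. The stretches lie at chr2:17775002-17775031 and chr3:21707397-21707426, both exonic, and capitals mark the 7 bases at which MBF1B departs from MBF1A.
MBF1A coding bases: tgggagccggtggtgatccgtaagaaaccc
MBF1B coding bases: tgggaAccAgtTgtgatccgCaagaGaGcT
The longest run that the MBF1A and MBF1B transcripts share is 23 bases (atcaatgagaagccacaagtgat, at chr2:17776000-17776022 and chr3:21708509-21708531), which is far shorter than the 150 bases of a read.

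The heat shock element is the DNA motif that heat shock factors bind, built from alternating GAA and TTC units. The bases before the coding start were searched on both strands for its 2-unit forms, GAANNTTC and TTCNNGAA, each of which reads the same on the opposite strand and which can overlap by 3 bases. MBF1C held 1 match to each form within 500 bases, and both are shown because HSFA2 and HSFA3 are heat shock factors. Capitals mark the matches, which lie 175 and 387 bases before the coding start, inside the 5′ UTR of the longer transcript and 99 and 311 bases before the start of the shorter one.
MBF1C GAANNTTC match, chr3:8918569-8918598: atcatctctaaGAACGTTCcagagacgaaa
MBF1C TTCNNGAA match, chr3:8918357-8918386: gaataattcggTTCTGGAAgtaagggatcc
MBF1A and MBF1B held neither form in the same window. Over 27443 protein-coding genes, 21.0% held GAANNTTC, 17.5% held TTCNNGAA and 33.9% held either. A form with a further alternating unit was found in 1.20% of genes and in no MBF1 gene, and the same was true of the drought-responsive element (ACCGAC or GCCGAC), found in 12.9%. In MBF1C these 500 bases were almost all 5′ UTR, which spans 488 bases in the longer transcript. The 5′ UTR spans 140 bases in MBF1A and 120 in MBF1B, so the window covered unlike regions. Bases further upstream were not searched. CTAGA, an element known for binding by MBF1C, was found in the window of all 3 genes and of 44.8% of all genes. It lay 38 bases before the coding start of MBF1A, 39 before that of MBF1B and 452 before that of MBF1C. All 3 matches were inside an annotated 5′ UTR, for MBF1C that of the longer transcript. A match describes the letters only.

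Libraries held 27561060 to 33861060 counts on protein-coding genes, and each MBF1 count was at least 304. Transcript levels of the targeted genes went with the labels. At 4 h, HSFA2 was at 1237 to 1589 CPM in Col and at 58.3 to 65.7 CPM in hsfa2 hsfa3, and HSFA3 was at 893 to 1129 CPM in Col and at 156 to 172 CPM in hsfa3. The photosynthetic genes RBCS1A and CAB1 summed to 19770 to 32140 CPM without HS and to 10910 to 17170 CPM at 4 h, and the root genes CASP1, EXP7 and COBL9 to 71.7 to 172 CPM and 19.3 to 87.5 CPM. The seed storage gene CRA1 stayed between 0.20 and 15.7 CPM in all 48 libraries. Over these 6 markers, 23 of 72 changes against no HS were called and all were lower, while 0 of 54 differences from Col in those changes were called by edgeR (5 at an unadjusted p below 0.05). The part of tissue make-up in the results was not tested, and in whole seedlings fewer cells of a type and less RNA per cell cannot be told apart.

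MBF1C, the heat-inducible member, was strongly induced by ACC in every genotype and then fell steeply, to levels that differed between Col and hsfa2 hsfa3. In Col without HS it was at 13.3, 13.9 and 14.9 CPM. At 4 h after ACC it was at 1113, 829 and 866 CPM, at 28 h at 47.7, 32.7 and 36.7 CPM, and at 52 h at 31.98, 30.2 and 28.4 CPM. All 9 treated Col libraries were above all 3 libraries without HS. The log2 fold change was 6.06 at 4 h (SE 0.298, 66.8-fold, adjusted p = 1.94e-19 by edgeR), where 71.6% of all genes were called and 16.9% were induced. At 28 h it was 1.48 (SE 0.249, 2.78-fold, adjusted p = 2.08e-05), with 38.2% of genes called and 4.72% induced. At 52 h it was 1.11 (SE 0.248, 2.15-fold, adjusted p = 0.00215), with 14.8% called and 2.16% induced. MBF1C therefore stood above its level without HS at all 3 time points in Col, with the 128th highest log2 fold change of 21107 genes at 4 h. The call at 52 h was kept without replicate 1 and without replicate 2, but without replicate 3 the log2 fold change was 1.19 with an adjusted p of 0.0888.

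**Figure D1:**
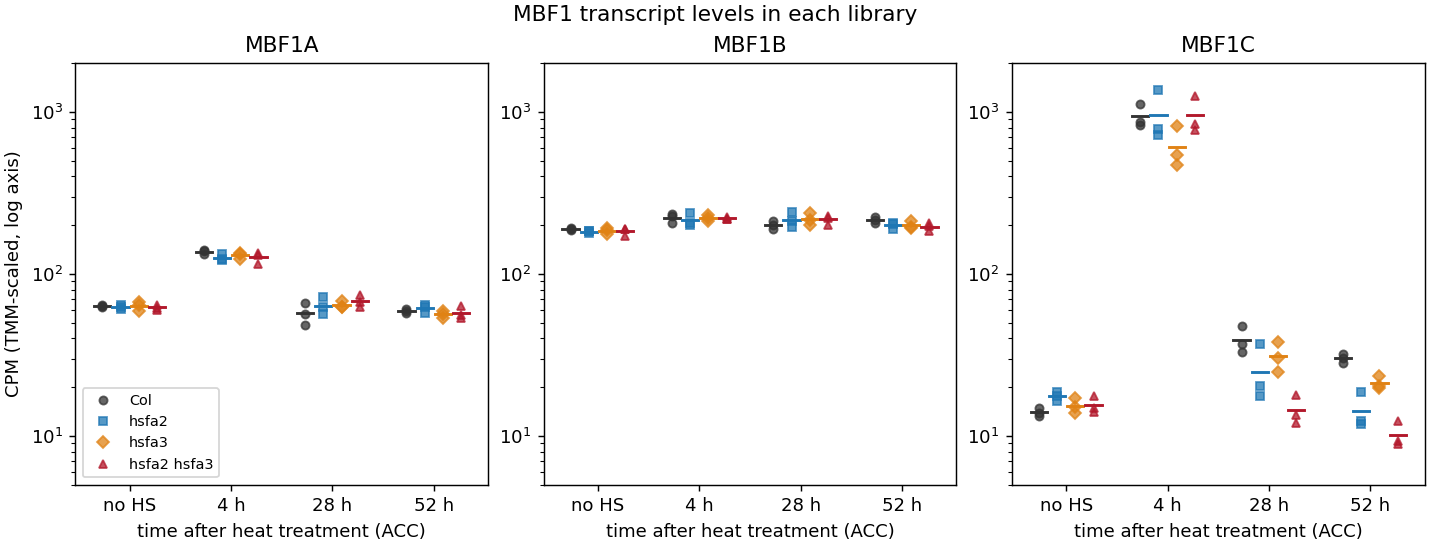
CPM (log axis) of MBF1A, MBF1B and MBF1C in each of the 48 libraries, with a panel per gene, treatments along the x axis, a colour per genotype and a bar at each group mean. MBF1C spans 8.86 to 1363 CPM, with every library at 4 h above 467 CPM, while MBF1A stays between 48.3 and 140 CPM and MBF1B between 171 and 242 CPM.

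In hsfa2, MBF1C was induced at 4 h and was not called above its starting level later. The libraries without HS were at 18.7, 16.5 and 17.6 CPM, and those at 4 h at 1363, 785 and 720 CPM. Those at 28 h were at 36.8, 17.7 and 20.4 CPM and those at 52 h at 18.7, 11.8 and 12.4 CPM. The libraries at 28 h and at 52 h overlapped those without HS. The log2 fold change was 5.76 at 4 h (54.3-fold, adjusted p = 6.68e-19), 0.50 at 28 h (adjusted p = 0.155) and -0.30 at 52 h (adjusted p = 0.485). In hsfa2 the shares of all genes called were 69.8%, 17.7% and 10.8% in order of time, and the shares induced were 15.4%, 2.14% and 1.79%. Replicate 1 was the highest of its group for MBF1C at each time after ACC in all 4 genotypes, and without it the hsfa2 value at 52 h was -0.49 (adjusted p = 0.0164).

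The hsfa3 mutant had the lowest mean MBF1C level at 4 h of the 4 genotypes, with libraries that overlapped those of hsfa2 and hsfa2 hsfa3. Its libraries were at 17.2, 15.1 and 13.9 CPM without HS and at 821, 467 and 545 CPM at 4 h. At 28 h they were at 37.9, 24.8 and 30.1 CPM and at 52 h at 23.4, 19.7 and 20.2 CPM. Each treated library was thus above the 3 without HS. MBF1C was induced at 4 h with a log2 fold change of 5.31 (39.7-fold, adjusted p = 4.06e-18). At 28 h the value was 1.01 (SE 0.247, 2.01-fold, adjusted p = 0.0036), which lies at the threshold for induction and was not called without replicate 3 (0.96, adjusted p = 0.118). At 52 h it was 0.46 (adjusted p = 0.257), and 0.47 (adjusted p = 0.0249) without replicate 1. The shares of all genes called in hsfa3 were 69.9%, 22.6% and 7.59% in order of time, and the shares induced were 14.8%, 2.53% and 1.75%.

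In hsfa2 hsfa3, MBF1C was induced at 4 h to levels within the range of the other genotypes, and was not called above its level without HS at 28 h or 52 h. The libraries without HS were at 14.8, 17.5 and 14.1 CPM and those at 4 h at 1254, 771 and 847 CPM. Those at 28 h were at 18.0, 11.9 and 13.6 CPM and those at 52 h at 12.3, 8.86 and 9.34 CPM. At 52 h every hsfa2 hsfa3 library was therefore below its 3 libraries without HS. The log2 fold change was 5.95 at 4 h (61.9-fold, adjusted p = 3.7e-19), -0.09 at 28 h (adjusted p = 0.825) and -0.60 at 52 h (adjusted p = 0.114, and -0.81 with an adjusted p of 0.000564 without replicate 1). The shares of all genes called in this genotype were 70.1%, 19.9% and 11.1% and the shares induced were 15.2%, 2.27% and 1.65%.

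Ordered by mean CPM, the 16 groups of MBF1C began with the 4 groups at 4 h, led by hsfa2 hsfa3 (958 ± 259 CPM, SD, n = 3), hsfa2 (956 ± 354) and Col (936 ± 154), which overlapped one another. The hsfa3 group at 4 h (611 ± 186) came next, just below the Col libraries. Col at 28 h (39.0 ± 7.7) led the remaining groups, and hsfa2 hsfa3 at 52 h (10.2 ± 1.9) was the lowest of all. Of the 15 pairs of neighbours in this order, 11 overlapped. The breaks lay between Col and hsfa3 at 4 h, between 4 h and the later times, between hsfa3 at 52 h and hsfa2 without HS, and between Col without HS and hsfa2 hsfa3 at 52 h.

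The loss of sustained MBF1C expression in hsfa2 hsfa3 was tested as the difference in log2 fold change from Col. At 4 h the difference was -0.11 (95% interval -0.81 to 0.59, adjusted p = 0.973 by edgeR), where 4.38% of all genes were called. At 28 h it was -1.57 (SE 0.35, interval -2.28 to -0.86, adjusted p = 0.0183), where 1.23% were called, and at 52 h it was -1.71 (SE 0.353, interval -2.43 to -0.99, adjusted p = 0.0251), where 0.118% were called. MBF1C was thus among 0.118% of genes whose induction at 52 h differed between the double mutant and Col. The size of these differences held without each replicate in turn. Both calls were kept in 8 of 10 alternatives, among them the fit without replicate 1, but were lost without replicate 2 and without replicate 3. At 28 h the value was -1.45 (adjusted p = 0.0829) without replicate 2 and -1.67 (adjusted p = 0.404) without replicate 3, and at 52 h it was -1.52 (adjusted p = 0.934) and -1.80 (adjusted p = 1).

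For the single mutants none of the same differences was called by the main edgeR fit. Those at 28 h and 52 h were smaller than in hsfa2 hsfa3, and those at 4 h were larger. In hsfa2 the difference from Col was -0.30 at 4 h (adjusted p = 1), -0.97 at 28 h (SE 0.347, adjusted p = 0.22) and -1.41 at 52 h (SE 0.35, adjusted p = 0.381), with 2.61%, 0.156% and 0.0142% of all genes called. Without replicate 1, -1.11 at 28 h and -1.50 at 52 h were called, with adjusted p values of 0.00289 and 0.000125. With the replicate number as a block, edgeR called -0.993 at 28 h (adjusted p = 0.0134) and -1.43 at 52 h (adjusted p = 0.000794). In hsfa3 the difference was -0.75 at 4 h (adjusted p = 0.767), -0.47 at 28 h (adjusted p = 0.828) and -0.65 at 52 h (adjusted p = 1). The shares of all genes called were 0.455% at 4 h and 0.00% at 28 h and 52 h, where DESeq2 called 6 and 1 genes. Of the 9 differences from Col for MBF1C, edgeR and DESeq2 each called 2, and 5 had an unadjusted p below 0.05.

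**Figure D2:**
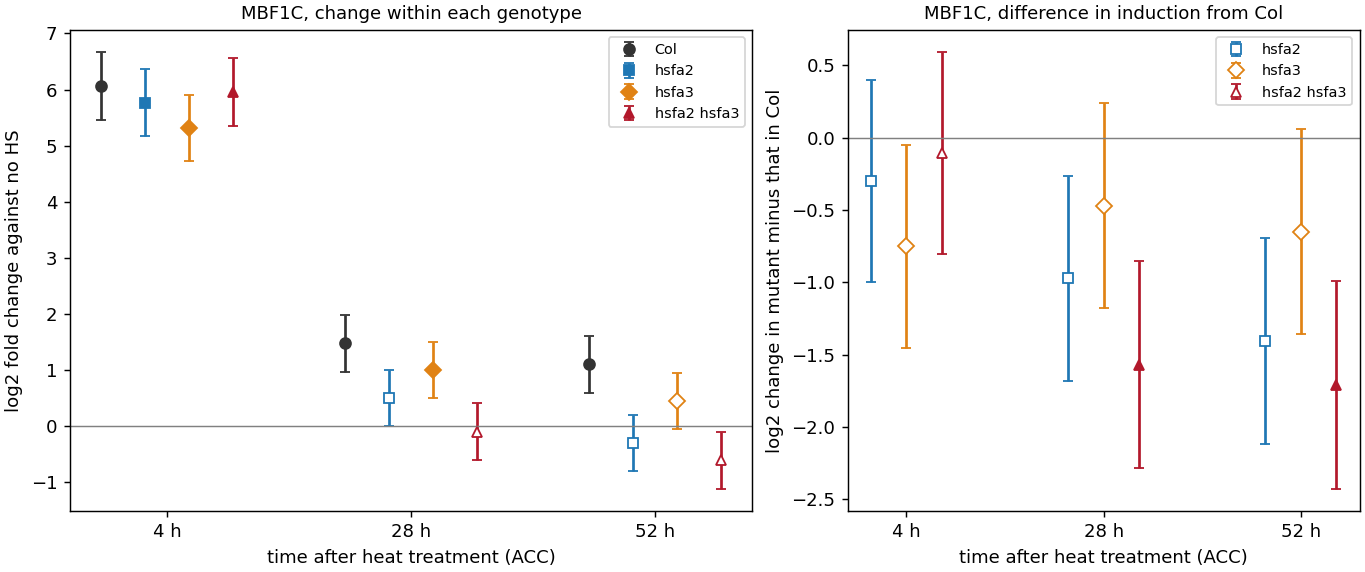
Log2 fold change of MBF1C against no HS at 3 times after ACC in each genotype (left) and the difference of that fold change from Col in each mutant (right), with points at the estimate, bars for the 95% interval and filled points at an adjusted p below 0.05. The 4 genotypes lie between 5.31 and 6.06 at 4 h, and hsfa2 hsfa3 departs from Col by -1.57 at 28 h and -1.71 at 52 h.

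The MBF1C levels were also compared directly at each time. Without HS, hsfa2 hsfa3 differed from Col by 0.14 on the log2 scale (adjusted p = 1), and at 4 h by 0.03 (interval -0.45 to 0.52, adjusted p = 0.981). At 28 h MBF1C was lower by a log2 difference of -1.43 (SE 0.249, adjusted p = 0.000238), or 0.372 times the Col level, and at 52 h by -1.57 (SE 0.252, adjusted p = 0.000181), or 0.337 times. All 3 hsfa2 hsfa3 libraries were below all 3 Col libraries at both times. The shares of all genes that differed in level between hsfa2 hsfa3 and Col were 0.0521% without HS, 9.20% at 4 h, 9.64% at 28 h and 0.611% at 52 h. Without replicate 3 the values were -1.42 at 28 h (adjusted p = 0.0513) and -1.55 at 52 h (adjusted p = 0.177).

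By the main edgeR fit, neither single mutant was called different from Col in the MBF1C level. In hsfa2 the log2 difference was -0.64 at 28 h (adjusted p = 0.159) and -1.08 at 52 h (adjusted p = 0.0571), and DESeq2 called the value at 52 h (adjusted p = 0.00695). At 52 h the 3 hsfa2 libraries were all below the 3 Col libraries. In hsfa3 the log2 difference was -0.62 at 4 h (adjusted p = 0.244), -0.33 at 28 h (adjusted p = 0.582) and -0.52 at 52 h (adjusted p = 1), and the libraries of both genotypes did not overlap at 4 h or 52 h. Without replicate 1, the hsfa2 values were -0.86 at 28 h (adjusted p = 0.000348) and -1.26 at 52 h (adjusted p = 4.82e-06), and the hsfa3 value at 4 h was -0.74 (adjusted p = 0.000814). With the replicate number as a block, edgeR called hsfa2 at 28 h (-0.68, adjusted p = 0.00583) and 52 h (-1.11, adjusted p = 2.53e-05). The block fit also called hsfa3 at 4 h (-0.64, adjusted p = 0.00568). With library totals in place of TMM factors, edgeR called hsfa2 at 52 h (-1.05, adjusted p = 0.0297). Across all genes, the share that differed in level from Col, in order from no HS to 52 h, was 0.0426%, 5.78%, 2.63% and 0.166% in hsfa2 and 0.0284%, 2.26%, 1.76% and 0.0569% in hsfa3.

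Whether the double mutant lost more than a single mutant was tested too. Against hsfa2, the difference in MBF1C log2 fold change was 0.19 at 4 h, -0.60 at 28 h (interval -1.31 to 0.11) and -0.30 at 52 h. Against hsfa3, it was 0.64 at 4 h, -1.10 at 28 h and -1.06 at 52 h, each with an adjusted p in edgeR above the threshold. None of the 6 was called by the main edgeR fit or DESeq2, and 2 had an unadjusted p below 0.05. These tests called few genes of any kind, namely 0.0190%, 0.00% and 0.00% of all genes against hsfa2 and 0.824%, 0.0284% and 0.00% against hsfa3 in order of time. Without replicate 1, the differences from hsfa3 were -1.24 at 28 h (adjusted p = 0.00316) and -1.28 at 52 h (adjusted p = 0.0033). With the replicate number as a block, that at 28 h was -1.12 (adjusted p = 0.0184 by edgeR).

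MBF1C declined steeply between 4 h and 28 h in every genotype. The log2 change was -4.58 in Col, -5.26 in hsfa2, -4.30 in hsfa3 and -6.04 in hsfa2 hsfa3, and all 4 were called, as were 68.3%, 68.4%, 66.8% and 66.6% of all genes in the same order. From 28 h to 52 h the changes were -0.37, -0.80, -0.55 and -0.51, and none was called (adjusted p from 0.0688 to 0.335), where 15.2%, 2.73%, 3.57% and 2.62% of all genes were called. The change in hsfa2 was called in 4 of 11 alternatives, among them DESeq2 (-0.81, adjusted p = 0.0338) and the fit without replicate 1 (-0.65, adjusted p = 0.00868 by edgeR). That in hsfa3 was called with the replicate number as a block (-0.53, adjusted p = 0.0248 by edgeR). The fall after 4 h was larger in hsfa2 hsfa3 than in Col, by -1.46 to 28 h (SE 0.342, adjusted p = 0.00647) and by -1.60 to 52 h (SE 0.345, adjusted p = 0.00294), with 5.45% and 3.13% of all genes called. This comparison was added after the MBF1C values had been seen. Without replicate 2 the adjusted p was 0.056 and 0.0708, and without replicate 3 it was 0.258 and 0.271. For hsfa2 the differences in fall were -0.67 (adjusted p = 0.384) and -1.11 (adjusted p = 0.11), where 2.44% and 1.73% of all genes were called, and without replicate 1 they were -0.69 (adjusted p = 0.0191) and -1.09 (adjusted p = 0.000433). For hsfa3 they were 0.28 and 0.10, where 0.280% and 0.190% were called.

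MBF1A, one of the steadily expressed members, was about 2-fold higher at 4 h and was not called different from its starting level at 28 h or 52 h. Over the 12 libraries of each treatment it was at 59.2 to 66.9 CPM (median 62.8) without HS, 116 to 140 CPM (median 132) at 4 h, 48.3 to 74.1 CPM (median 62.7) at 28 h and 53.1 to 64.6 CPM (median 58.1) at 52 h. Every library at 4 h was above every other library. In Col the libraries were at 63.0, 64.5 and 62.1 CPM without HS, 132, 139 and 140 CPM at 4 h, 48.3, 65.8 and 56.8 CPM at 28 h and 58.7, 57.1 and 61.2 CPM at 52 h. Only the values at 4 h stood apart from the rest.

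The log2 fold change of MBF1A at 4 h was 1.12 in Col (SE 0.0877, 2.17-fold, adjusted p = 9.63e-14 by edgeR), 1.00 in hsfa2 (2.00-fold), 1.03 in hsfa3 (2.05-fold) and 1.03 in hsfa2 hsfa3 (2.04-fold). All 4 were past the threshold for induction, the mutants only just. At 28 h and 52 h the values lay between -0.17 and 0.13 and none was called. Between 4 h and 28 h MBF1A fell in every genotype, with log2 changes of -1.26 in Col, -0.98 in hsfa2, -1.02 in hsfa3 and -0.90 in hsfa2 hsfa3.

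By the main edgeR fit, no difference between a mutant and Col was called for MBF1A. Its differences in log2 fold change from Col lay between -0.11 and 0.28 in the 9 comparisons, and 0 were called by edgeR or DESeq2 (1 at an unadjusted p below 0.05, namely 0.28 in hsfa2 hsfa3 at 28 h with an adjusted p of 0.283). None of its 12 levels differed from Col by the main edgeR fit. The largest difference was 0.25 in hsfa2 hsfa3 at 28 h (adjusted p = 0.0602), which DESeq2 called (adjusted p = 0.0266), and without replicate 2 it was 0.43 (adjusted p = 0.0114 by edgeR). On all libraries edgeR called it with DESeq2 size factors (0.27, adjusted p = 0.0437) and with the stricter filter (0.26, adjusted p = 0.048). With the replicate number as a block it was called too (0.26, adjusted p = 0.0357). The change from 4 h to 28 h in hsfa2 hsfa3 minus that in Col, not called by the main edgeR fit, was called in 3 of 10 alternatives. Among these were DESeq2 (0.37, adjusted p = 0.0341) and the fit without replicate 2 (0.59, adjusted p = 0.0226 by edgeR). At 28 h the hsfa2 hsfa3 libraries were at 74.1, 62.7 and 66.8 CPM, which overlapped the Col libraries. In the order of the 16 groups by mean CPM, 14 of 15 pairs of neighbours overlapped and the single break separated the 4 groups at 4 h from the rest.

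MBF1A overlaps a gene on the other strand, AT2G42690, by 80 bases, and which strand setting was used for the counts is not given in the sources used here. AT2G42690 moved the other way, from 93.6 ± 12.9 CPM without HS to 20.0 ± 0.60 CPM at 4 h in Col (SD, n = 3). MBF1C overlaps MSH7 by 22 bases, ALDH2C4 by 124 bases and an antisense transcript by 176 bases. In Col, in order from no HS to 52 h, ALDH2C4 had CPM values of 122 ± 7.7, 86.3 ± 3.2, 129 ± 1.6 and 154 ± 15, and MSH7 of 15.2 ± 0.36, 15.2 ± 0.46, 22.4 ± 3.1 and 17.5 ± 1.5. ALDH2C4 was thus lower at 4 h, where MBF1C was highest, while both overlapping genes had higher means at 28 h and 52 h than without HS. In hsfa2 hsfa3 at 28 h, ALDH2C4 was at 122 ± 13 CPM and MSH7 at 17.9 ± 2.0 CPM. The share of MBF1A and MBF1C counts that comes from these overlaps was not tested.

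MBF1B, the most abundant member without HS, changed least. Over the 12 libraries of each treatment it was at 171 to 193 CPM (median 187) without HS, 201 to 237 CPM (median 220) at 4 h, 189 to 242 CPM (median 212) at 28 h and 184 to 223 CPM (median 205) at 52 h. The libraries at 4 h did not overlap those without HS. In Col they were at 190, 193 and 186 CPM without HS, 228, 233 and 205 CPM at 4 h, 189, 212 and 199 CPM at 28 h and 207, 223 and 214 CPM at 52 h. Neighbouring groups overlapped in all 15 pairs of the order by mean CPM.

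The log2 fold change of MBF1B at 4 h was 0.23 in Col (SE 0.077, adjusted p = 0.00938 by edgeR), 0.24 in hsfa2 (adjusted p = 0.00693), 0.26 in hsfa3 (adjusted p = 0.00334) and 0.26 in hsfa2 hsfa3 (adjusted p = 0.00318). All 4 were called higher and none was induced. A call at 4 h was common, with 69.8 to 71.6% of all genes called in either direction and 7185 to 7487 of 21107 called higher. At 28 h it was 0.08 in Col (adjusted p = 0.449) and 0.25, 0.24 and 0.24 in hsfa2, hsfa3 and hsfa2 hsfa3, which were called (adjusted p = 0.0227, 0.0237 and 0.0261), as were 17.7%, 22.6% and 19.9% of all genes. That Col was not called and the mutants were is no difference between them, since none of the 9 differences from Col was called by edgeR or DESeq2 (0 at an unadjusted p below 0.05, range -0.09 to 0.17). At 52 h the values were 0.09 to 0.18 and none was called, and none of the 12 levels differed from Col.

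These small MBF1B changes depended on the scaling. With library totals in place of TMM factors, an alternative chosen after the levels had been seen, the values at 4 h were 0.02, 0.03, 0.12 and 0.06 in Col, hsfa2, hsfa3 and hsfa2 hsfa3 and none was called (adjusted p from 0.168 to 0.82). The median of all genes then was -0.25 in Col, against -0.05 with TMM. Relative to the median gene MBF1B was higher by 0.27 under both scalings. A scaling of whole libraries shifts all genes alike, so this likeness was fixed in advance and cannot decide between the scalings. Replicates mattered as well. Without replicate 3 the Col value at 4 h was 0.27 (adjusted p = 0.0635), and without replicate 1 the hsfa2 value at 4 h was 0.15 (adjusted p = 0.107). None of the 3 calls in the mutants at 28 h held without replicate 1 (adjusted p from 0.134 to 0.303) or without replicate 3 (adjusted p from 0.198 to 0.242).

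Counting over the family, 2 of 3 members (MBF1A and MBF1C) were induced at 4 h in each genotype, where 14.8 to 16.9% of all genes were. MBF1C alone was induced at 28 h in Col and hsfa3, with 4.72% and 2.53% of all genes, and at 52 h in Col, with 2.16%, and no member was induced in the other 5 combinations of genotype and later time. With so few members, and MBF1A in the mutants close to a log2 fold change of 1, these counts moved by 1 member under several alternatives. With library totals, only MBF1C was induced at 4 h in every genotype.

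The make-up of the MBF1 transcript pool was compared per length, as CPM per kilobase of exon (773, 896 and 1206 bases of exon for MBF1A, MBF1B and MBF1C). In Col without HS, MBF1B was at 212 ± 4.3, MBF1A at 81.8 ± 1.6 and MBF1C at 11.6 ± 0.65 CPM per kilobase (SD, n = 3). At 4 h MBF1C was at 776 ± 128, MBF1B at 248 ± 17 and MBF1A at 177 ± 5.8 CPM per kilobase. The 3 members thus changed places, from MBF1B first and MBF1C last to MBF1C first and MBF1A last. Over the 12 libraries of each treatment, MBF1C made up 3.62 to 5.19% of the summed level without HS (mean 4.31%) and 48.5 to 72.8% at 4 h (mean 62.3%), while MBF1B went from a mean of 68.7% to 22.3% and MBF1A from 27.0% to 15.4%.

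At the later times the mean MBF1C share of the summed level differed between genotypes, which was not tested for the share itself. At 28 h it was 9.91 ± 2.46% in Col, 5.90 ± 1.81% in hsfa2, 7.23 ± 1.05% in hsfa3 and 3.50 ± 0.53% in hsfa2 hsfa3 (SD, n = 3). At 52 h it was 7.35 ± 0.54%, 3.76 ± 0.95%, 5.60 ± 0.72% and 2.80 ± 0.47% in the same order. The hsfa2 hsfa3 mutant was thus lowest in mean at both times, with all its libraries below those of Col. Libraries of hsfa2 and of hsfa3 overlapped those of Col at 28 h but not at 52 h.

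**Figure D3:**
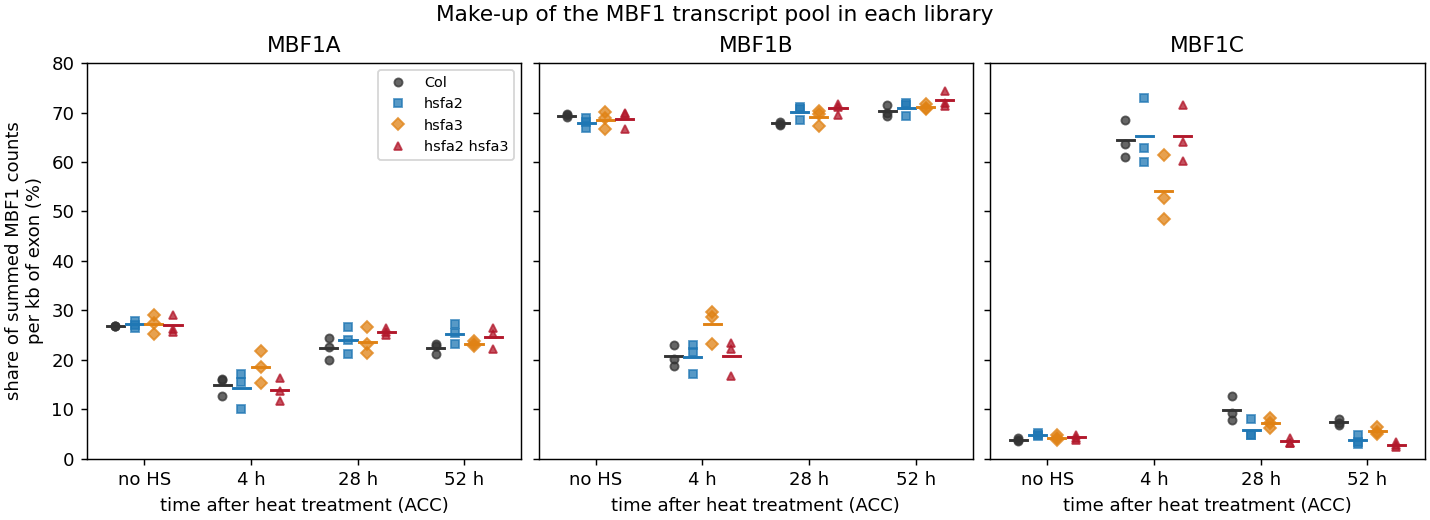
Percent of the summed MBF1 level (counts per kilobase of exon) held by MBF1A, MBF1B and MBF1C in each library, with a panel per gene, treatments along the x axis, a colour per genotype and a bar at each group mean. MBF1B holds a mean of 68.7% without HS and MBF1C a mean of 62.3% at 4 h, and at 52 h MBF1C ranges from 2.38 to 7.94%.

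Ratios between members within a library do not depend on scaling, and were compared between the 12 libraries of a time point and the 12 without HS by a two-sided permutation test with 6 comparisons. The test pooled the genotypes and took no account of genotype or replicate number, so its p-values treat all libraries as independent. The log2 ratio of MBF1B to MBF1A CPM fell from a mean of 1.56 to 0.76 at 4 h (difference -0.80, adjusted p = 6e-05 by permutation), with no overlap between libraries. It was above the level without HS by 0.20 at 28 h (adjusted p = 0.00081 by permutation) and by 0.23 at 52 h (adjusted p = 0.0002 by permutation). Relative to its near copy MBF1B, MBF1A was thus higher at 4 h and lower at 28 h and 52 h than without HS.

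The log2 ratio of MBF1C to MBF1A rose from a mean of -2.02 to 2.68 at 4 h (difference 4.69, adjusted p = 6e-05 by permutation, from the smallest p the test allows), again with no overlap. At 28 h the difference was 0.69 (adjusted p = 0.00516 by permutation), and without replicate 1 it was 0.49 (adjusted p = 0.063 by permutation). By genotype it was 1.62 in Col, 0.42 in hsfa2, 0.97 in hsfa3 and -0.23 in hsfa2 hsfa3. At 52 h the difference was 0.26 (adjusted p = 0.218 by permutation), from 1.21 in Col, -0.30 in hsfa2, 0.63 in hsfa3 and -0.49 in hsfa2 hsfa3. The pooled values at 28 h and 52 h thus join genotypes that lie on both sides of 0.

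Genes linked to MBF1 proteins were followed as lists, all chosen with earlier results of these data in view. General transcription factors were represented by 4 genes, TBP1 and TBP2 for the TATA-box-binding protein and TFIIB1 and TFIIB2 for TFIIB. At 4 h in Col, 3 of 4 were called higher and none lower, with a median log2 fold change of 0.81 against -0.05 over all genes. Of all genes 71.6% were called in either direction, and 7487 of 21107 were called higher. TFIIB1 was at 45.5, 50.2 and 45.7 CPM without HS and at 206, 204 and 203 CPM at 4 h (log2 fold change 2.11). TBP1 was at 21.8, 22.5 and 22.5 CPM and then at 51.1, 48.6 and 43.3 CPM (1.10), and TFIIB2 had a log2 fold change of 0.52, while TBP2 was not called (0.13). The TFIIB1 and TBP1 libraries at 4 h did not overlap those without HS. In each mutant 3 of 4 were higher at 4 h as well, with medians of 0.90 in hsfa2, 0.77 in hsfa3 and 0.94 in hsfa2 hsfa3, and 0 of 36 differences from Col were called by edgeR (2 at an unadjusted p below 0.05).

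Of the genes known to depend on MBF1C under heat in Arabidopsis, 3 transcription factor genes were followed. All 3 were induced at 4 h in every genotype, where 14.8 to 16.9% of all genes were. In Col the log2 fold changes were 4.98 for DREB2A, an activator of drought and heat genes, 3.65 for HSFB2A and 2.80 for HSFB2B, the last 2 encoding class B heat shock factors. HSFB2A was at 10.3, 10.99 and 12.2 CPM without HS and at 159, 125 and 135 CPM at 4 h in Col, against 77.2, 58.4 and 46.6 CPM at 4 h in hsfa2 hsfa3. The HSFB2A libraries of both genotypes did not overlap at 4 h, a time at which MBF1C levels did.

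Of the 3, HSFB2A alone had a called difference from Col in induction. Its log2 fold change at 4 h was smaller in hsfa2 hsfa3 by -1.23 on the log2 scale (SE 0.327, adjusted p = 0.0184 by edgeR), and its change from 4 h to 28 h differed from Col by 1.13 (SE 0.322, adjusted p = 0.0307). Without replicate 3 these values were -1.20 (adjusted p = 0.399) and 0.75 (adjusted p = 0.66), and without replicate 2 the first was -1.18 (adjusted p = 0.0657). Of 27 differences from Col over the list, the first was the single call, and 6 had an unadjusted p below 0.05. In level, 6 of 36 comparisons with Col were called, all lower. Shares of all genes called in level at 4 h were 5.78% in hsfa2, 2.26% in hsfa3 and 9.20% in hsfa2 hsfa3. At 28 h in hsfa2 hsfa3 the share was 9.64%. Most of these calls were lower too, in the same order 1065 of 1219, 431 of 476, 1453 of 1941 and 1340 of 2034. HSFB2A was lower at 4 h in hsfa2 (-0.77), hsfa3 (-0.88) and hsfa2 hsfa3 (-1.20), and HSFB2B at 4 h in hsfa3 (-0.84) and hsfa2 hsfa3 (-0.66) and at 28 h in hsfa2 hsfa3 (-0.59). At 28 h the HSFB2A libraries of hsfa2 hsfa3, at 16.2, 14.7 and 21.9 CPM, overlapped those of Col. The HSFB2A level was thus called lower in the double mutant at 4 h and that of MBF1C at 28 h and 52 h, and the difference between these genes was not tested. Later, DREB2A was still induced in Col at 28 h (1.61) and HSFB2A at 52 h (1.21). In hsfa2 hsfa3 at 28 h, 1 of the 3 genes was induced (1.12) and 1 was called lower (-0.70), and at 52 h 0 were induced.

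TPS5, a trehalose-phosphate synthase of class II, is a known protein partner of MBF1C in Arabidopsis, and the 7 genes of that class formed the last list. At 4 h in Col, 3 were called higher (TPS7 by 0.38, TPS10 by 0.58 and TPS11 by 1.99) and TPS5 was lower (-1.50), with a list median of 0.38 against -0.05 over all genes. These 4 of 7 stand beside 71.6% of all genes called. Of the 3 higher genes, 2 were called without replicate 1 or without replicate 3 and 1 with library totals, and under every alternative 1 gene of the list was called lower. TPS5 itself was at 55.3, 53.0 and 57.1 CPM without HS and at 18.6, 19.4 and 20.4 CPM at 4 h in Col. The partner transcripts thus moved in opposite directions at 4 h, MBF1C up and TPS5 down, and TPS5 was lower by -1.59, -1.35 and -1.56 in hsfa2, hsfa3 and hsfa2 hsfa3 too. None of the 63 differences from Col over the 7 genes was called by edgeR (0 at an unadjusted p below 0.05).

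**Figure D4:**
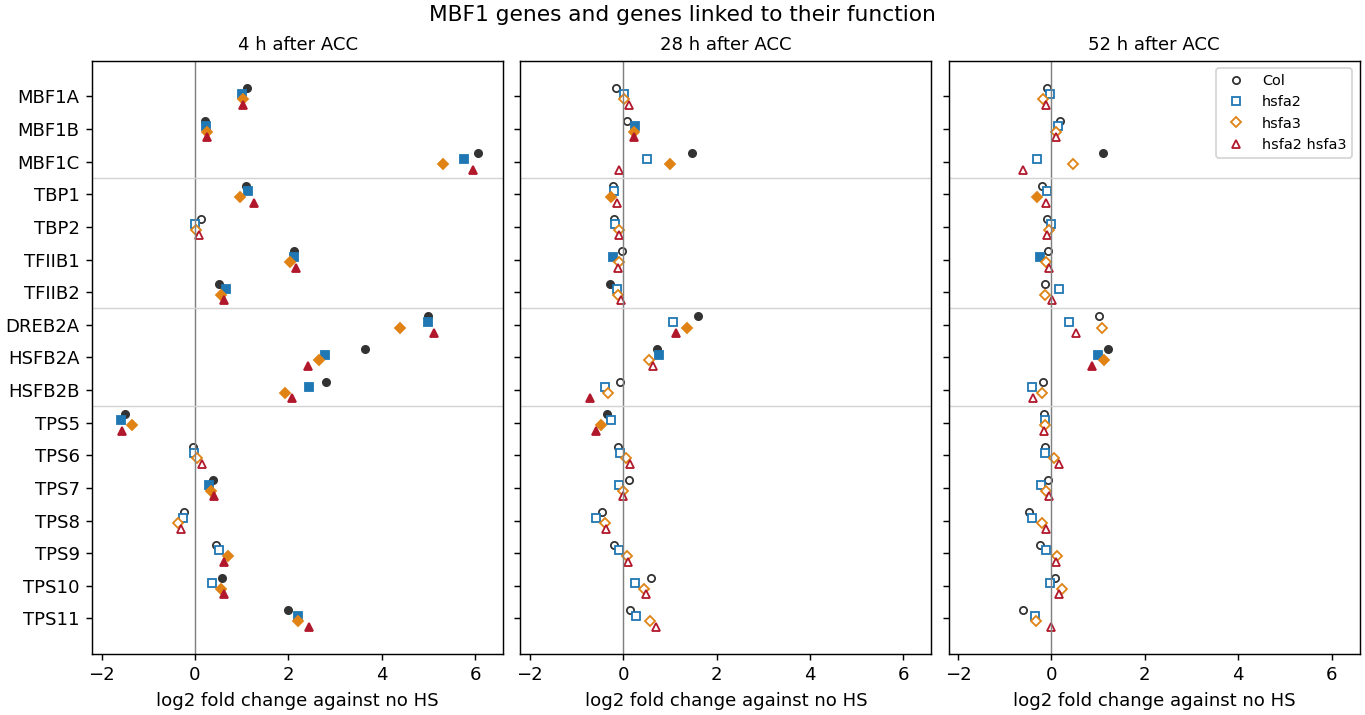
Log2 fold change against no HS of the 3 MBF1 genes and of the genes in the general transcription factor, MBF1C heat regulon and class II trehalose-phosphate synthase lists, with a panel for each of 4 h, 28 h and 52 h, a colour per genotype and filled points at an adjusted p below 0.05. At 4 h the heat regulon genes lie with MBF1C well above 0, TFIIB1 lies at 2.11 in Col, and TPS5 lies below 0 in every genotype.

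The genes whose pattern was most like that of each member were found by Pearson's r over the 16 group means of log2 CPM, as a description. The groups share libraries across genes and are dominated by the step at 4 h. For MBF1C the 5 most like were AT2G20560 (r = 0.998), Hop3 (0.998), AT5G48570 (0.998), RBL14 (0.997) and TIN1 (0.997). Hop3, a co-chaperone gene, was at 12.1 CPM without HS, 1328 CPM at 4 h and 21.7 CPM at 52 h in Col, against 7.44 CPM at 52 h in hsfa2 hsfa3. For MBF1A they were AT5G42560 (0.997), AT5G05100 (0.997) and PRA1.A2 (0.997), and for MBF1B, with its small changes, AT4G14230 (0.935), PUM9 (0.935) and PEX11C (0.929).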

How the data were processed

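The authors extracted total RNA from whole seedlings, sequenced it as paired reads of 150 bases, aligned the reads to TAIR10 with STAR 2.5.1a and deposited the raw, unnormalized counts that STAR's GeneCounts mode gave for each gene and library. The strand setting of the counts is not given in the sources used here. The summary lines of each file (unmapped, multimapping, without a feature or ambiguous) held 7.20 to 9.38% of reads and were left out. Of 33323 genes, 32835 matched the TAIR10.1 gene table by locus, and the 26712 protein-coding genes were used. No 2 replicates were one library deposited again (chi-square per degree of freedom 11.2 to 79.4 over 48 pairs).

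Counts were fitted with edgeR 4.0.16 in R 4.3.3 over all 48 libraries with a coefficient per group. Genes were kept by filterByExpr (21107 genes), libraries were scaled by TMM, and a quasi-likelihood test with 32 residual degrees of freedom gave p-values, adjusted after Benjamini and Hochberg over all genes tested in each of 53 contrasts. Standard errors were derived from the F statistic. The thresholds for induction follow the study's methods, with the adjusted p in place of a p whose adjustment is not stated there. Log2 CPM, used for likeness, has a prior count of 2. Alternatives were DESeq2 1.42.0, its size factors in edgeR, no filter, a filter of 1 CPM in 24 libraries, all genes in the files, each genotype on its own, each replicate left out, the replicate number as a block, and library totals without TMM, the last chosen after the data were seen. Ratios were tested with scipy 1.17.1 (100000 resamples). The fits were tested on simulated data.

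Sequences, gene models and overlaps came from the RefSeq annotation of TAIR10.1, and sequences were compared with Biopython 1.88. The 3 MBF1 genes and the lists of general transcription factors, heat regulon and trehalose-phosphate synthase genes were chosen with earlier results of these data known. The MBF1 genes are described in full, the lists by their counts, and likeness by the 5 genes nearest to MBF1C and the 3 nearest to MBF1A and to MBF1B.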

Additional observations from a re-analysis of the deposited data

Results flagged for a closer look

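The results below differed between genotypes by a test of the difference itself in edgeR. For MBF1C, the log2 fold change against no HS in hsfa2 hsfa3 minus that in Col was -1.57 at 28 h (SE 0.35, adjusted p = 0.0183) and -1.71 at 52 h (SE 0.353, adjusted p = 0.0251). The change of MBF1C from 4 h differed between the same genotypes by -1.46 to 28 h (SE 0.342, adjusted p = 0.00647) and by -1.60 to 52 h (SE 0.345, adjusted p = 0.00294). These 4 values share the Col and hsfa2 hsfa3 libraries at 28 h and 52 h and are not independent of each other. For HSFB2A, the same difference in log2 fold change was -1.23 at 4 h (SE 0.327, adjusted p = 0.0184), and the change from 4 h to 28 h differed by 1.13 (SE 0.322, adjusted p = 0.0307). None of the 4 MBF1C values was called without replicate 2 or without replicate 3, and neither HSFB2A value was called without replicate 3. The comparison of changes from 4 h was added after the MBF1C values had been seen.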

How the results depend on the processing

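Of 1800 values recomputed for 177 results under the alternatives, 1711 kept their direction and their side of the threshold, 31 lost a call, 41 gained one, 16 counts moved and 1 reversed. MBF1C at 4 h and at 28 h in Col and MBF1A at 4 h kept their calls under all alternatives. The reversed value was the change of MBF1B from 4 h to 28 h in hsfa2 hsfa3, which with library totals was 0.204 (adjusted p = 0.0165 by edgeR). With the same scaling, MBF1B at 4 h in Col was 0.0199 (adjusted p = 0.82) and the number of members induced at 4 h was 1 in each genotype. That number was also 1 in hsfa2 with no filter and with the stricter filter, and in hsfa3 with no filter, where MBF1A lay at the threshold. The cause was not tested. In hsfa3 at 28 h, 0 members were induced with DESeq2, with its size factors, with the block, without replicate 1 and without replicate 3.

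Leaving out each replicate in turn, MBF1B at 4 h in Col ranged from 0.21 to 0.27, MBF1C at 52 h in Col from 1.01 to 1.19, and its difference from Col in hsfa2 from -1.11 to -0.92 at 28 h and -1.50 to -1.34 at 52 h, and in hsfa2 hsfa3 from -1.67 to -1.45 and -1.82 to -1.52. The ratio of MBF1C to MBF1A at 28 h ranged from 0.49 to 0.86. The number of members induced ranged from 1 to 2 at 4 h in each mutant and from 0 to 1 in Col at 52 h. Fits with a replicate left out have fewer libraries.

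The replicate numbers are given by the labels with no shared batch named, and the samples share only a number. Deviations from group means correlated by 0.262 on average for libraries of the same number and by -0.130 for others, 270 of 360 pairs were over 0.1, 42 of 48 libraries correlated best with their own number, and in 4 of 12 inductions all 3 pairs were over 0.1. With the replicate block, the induction of MBF1C in hsfa2 differed from Col by -0.993 at 28 h (adjusted p = 0.0134) and -1.43 at 52 h (adjusted p = 0.000794), its level was below Col at 28 h (-0.68, adjusted p = 0.00583) and 52 h (-1.11, adjusted p = 2.53e-05), its level in hsfa3 was below Col at 4 h (-0.64, adjusted p = 0.00568), and 15 of 171 results changed in all. Over all genes the block moved the calls for hsfa2 hsfa3 minus Col from 259 to 763 at 28 h and from 25 to 45 at 52 h, and for Col against no HS at 52 h from 3130 to 5298. Results are limited by 3 replicates a group and not by depth for the MBF1 genes, whose lowest count was 304.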
